A study of Rattus norvegicus with 6 samples.

Results

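Maf1 and 8 genes of the RNA polymerase III machinery were examined in RNA recovered by pull-down from GH4C1, an established cell line of rat pituitary origin whose cells make growth hormone and prolactin. The 9 genes were taken by name from a table of 32883 rat genes. They are the repressor Maf1, the TFIIIB subunits Brf1, Brf2 and Bdp1, and the polymerase subunits Polr3a, Polr3b, Polr3c, Polr3d and Polr3e. Maf1 was picked because its counts differed strongly between the pools, and the other genes were grouped around it by function. The differences of all 9 between the pools are therefore given as a description, with no p-value. Where they are counted by the threshold of the fit over all genes, the count describes them and is no test.

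Wild-type GH4C1 cells in all groups had been treated with psoralen, which crosslinks paired RNA strands, before RNA was retrieved with oligonucleotides. The study sought RNAs in direct contact with Neat1, the long noncoding RNA on which paraspeckles are built. The 2 groups of 3 libraries differ in the oligonucleotides used, named oligo pool A and oligo pool B. What each pool binds, its sequences, and whether it was meant as a control are not given in the labels. Neither input RNA nor cells without psoralen were analysed here. How much of an RNA the cells held and how efficiently it was recovered cannot be told apart in these counts. All libraries come from 1 cell line, and nothing in the labels says that they came from separate cultures, so p-values measure only the spread between these libraries, which may be technical.

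RNA polymerase III makes short noncoding RNAs, among them transfer RNAs, 5S ribosomal RNA, the U6 spliceosomal RNA, 7SK and the RNAs of ribonucleases P and MRP. It is brought to its genes by TFIIIB, which contains the TATA-binding protein, Bdp1 and either Brf1 or Brf2. Maf1 binds the polymerase and TFIIIB and represses transcription when nutrients or growth signals are low, and phosphorylation through mTORC1 keeps it inactive in growing cells. All members encode proteins, so the measured molecules are their messenger RNAs.

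Total counts per library were between 1826390 and 3685899. CPM values are counts scaled to the total count of the library. A count of 0 allows up to 3 counts, or between 0.814 and 1.64 CPM. Between libraries of a pool, Pearson's r of log2 CPM was 0.930 to 0.949 across genes, which are not independent replicates. Such pairs still differed by 5.86 to 20.7 times sampling noise (chi-square per degree of freedom). Pituitary identity was checked with 6 marker genes listed for the lactosomatotroph lineage. Of these, Chga, Chgb and Pitx1 are not specific to that lineage. Prl was between 386 and 759 CPM, Gh1 between 149 and 187 CPM and Pou1f1 between 139 and 227 CPM. The 6 markers summed to between 5836 and 6836 CPM with pool A and between 29343 and 36474 CPM with pool B, of which Chgb made up most with pool B. They did not move one way: by edgeR's adjusted p, Prl (log2 fold change, pool A over pool B, 0.83 ± 0.14, SE), Chga (0.63 ± 0.13, SE) and Pitx1 (1.22 ± 0.22, SE) were higher with pool A. Chgb (-2.94 ± 0.17, SE) was higher with pool B, and Gh1 and Pou1f1 did not pass. The 7 markers of other pituitary lineages summed to at most 26.0 CPM with pool A and 57.1 CPM with pool B. Tshb and Fshb were at 0 in every library. Lhb was the highest of them, at up to 16.0 CPM with pool A and 45.0 CPM with pool B, with a log2 fold change of -1.68 ± 0.28 (SE; edgeR adjusted p 2.00e-05). Of markers of blood and connective tissue, Ptprc was at most 5.65 CPM and Col1a1 at most 1.02 CPM. The part of these differences in the results was not tested.

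Maf1 (ENSRNOG00000013514) was recovered mainly with pool A. Its counts were 4520, 2521 and 3412 in pool A replicates 1, 2 and 3, and 108, 64 and 117 in pool B replicates 1, 2 and 3. Scaled to library totals, these were 1226, 997 and 1070 CPM with pool A and 36.8, 35.0 and 44.3 CPM with pool B. Every pool A library lay far above every pool B library. Counting error alone placed the lowest pool A library between 959 and 1037 CPM and the highest pool B library between 36.9 and 53.0 CPM (95% Wilson intervals). The means were 1098 ± 117 CPM (SD, n = 3) and 38.7 ± 4.9 CPM (SD, n = 3).

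In the fit over all genes (edgeR, TMM scaling), the log2 fold change of Maf1, pool A over pool B, was 4.96 ± 0.16 (SE), which is 31.2-fold. A high rank follows from how Maf1 was picked, and 9 of the 11582 genes tested had a higher fitted log2 fold change. Across the other scalings, filters, tests and omissions of a library it stayed between 4.82 and 5.08. Replicates varied by 10.7% of their mean with pool A, where counting error alone gives 1.73%. With pool B they varied by 12.6%, where counting error gives 10.5%. At the lower counts of pool B, the spread between libraries was thus close to what counting produces.

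**Figure D1:**
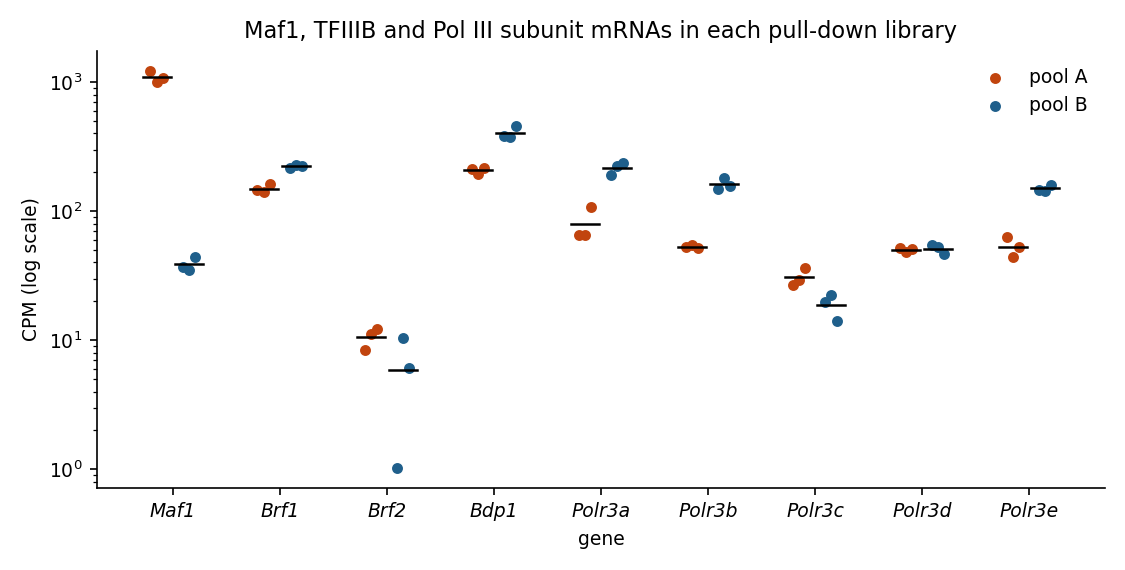
CPM of the 9 genes in each library, on a log scale, with pool A in orange and pool B in blue. Points are libraries and bars are pool means (n = 3); Maf1 lies between 997 and 1226 CPM with pool A and between 35.0 and 44.3 CPM with pool B, while Polr3a, Polr3b, Polr3e, Bdp1 and Brf1 lie higher with pool B.

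The other 8 genes, summed within each library, were higher with pool B. Their summed counts gave 625, 585 and 689 CPM in pool A replicates 1, 2 and 3, and 1158, 1237 and 1302 CPM in pool B replicates 1, 2 and 3. Every pool B library was above every pool A library. Most of the sum came from Bdp1, Brf1, Polr3a, Polr3b and Polr3e. Brf2, Polr3c and Polr3d were not higher with pool B in the fit. Maf1 gave 1.96, 1.71 and 1.55 counts per count of the other 8 genes in pool A replicates 1, 2 and 3. In pool B replicates 1, 2 and 3 it gave 0.0318, 0.0283 and 0.0340. This ratio is formed within a library and needs no scaling between libraries; gene lengths were not used, so it does not compare numbers of molecules. On the log2 scale the ratio differed between the pools by 5.79, with omission of single libraries giving 5.70 to 5.87. With the median over genes in place of the sum it was 6.36. Maf1 was picked for its difference between the pools, so the ratio only describes it.

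All 9 genes passed the filter on low counts. Past an adjusted p of 0.05 were 7 of the 9, where 40.6% of all tested genes passed. The count was 2 genes higher with pool A, Maf1 and Polr3c (18.6% of all tested genes), and 5 higher with pool B, Bdp1, Brf1, Polr3a, Polr3b and Polr3e (22.0%). Ranges of CPM did not overlap between the pools for the same 7 genes, against 49.1% of all tested genes. More than 2-fold higher with pool A in the fit were Maf1 and Brf2 (2 genes, 13.3% of all tested genes), and more than 2-fold higher with pool B were Polr3a, Polr3b and Polr3e (3 genes, 15.9%). The median log2 fold change of the 9 genes was -0.44, and that of all tested genes was 0.02. The fit used the contrast that led to the choice of Maf1, and nothing is read from these counts. Polr3c was no longer past the threshold without pool A replicate 3 or without pool B replicate 3, which left 1 gene higher with pool A. Brf1 was no longer past it without pool A replicate 2, which left 4 genes higher with pool B. Brf2 was past it without pool B replicate 2 and with limma-voom, which gave 3 genes higher with pool A.

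**Figure D2:**
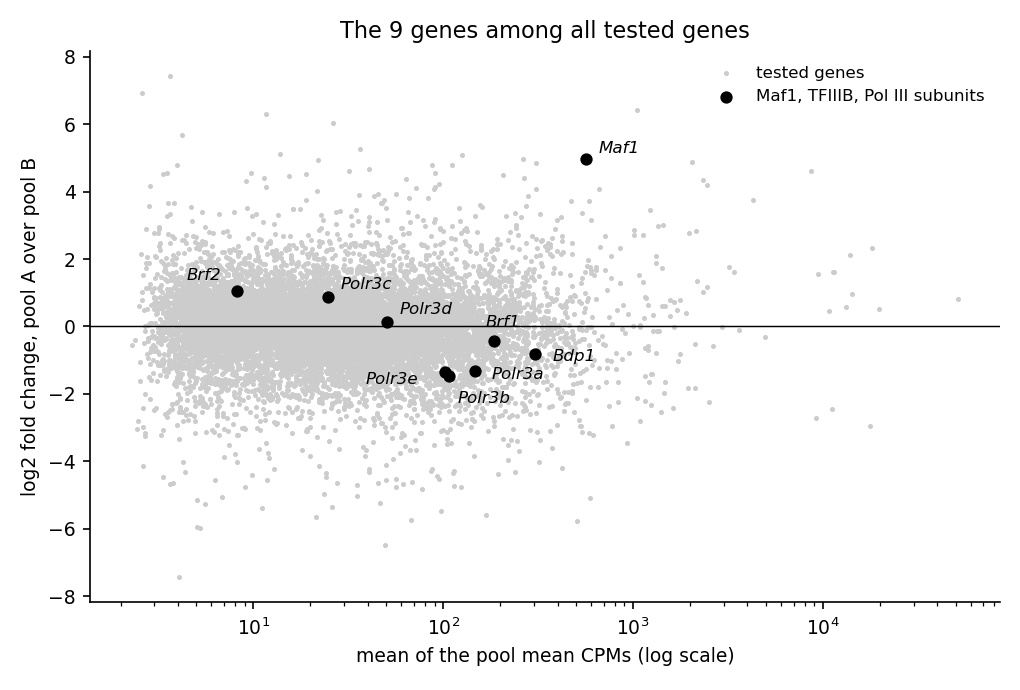
Log2 fold change, pool A over pool B, against the mean of the pool mean CPMs (log scale) for the 11582 tested genes in grey, with the 9 genes in black. Maf1 lies near the upper edge at 4.96, and the 8 others lie between -1.46 and 1.06.

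Within TFIIIB, Bdp1 and Brf1 were higher with pool B. Bdp1, the subunit common to both forms of TFIIIB, had 211, 193 and 217 CPM in pool A replicates 1, 2 and 3, and 385, 373 and 458 CPM in pool B replicates 1, 2 and 3. The groups did not overlap, and its log2 fold change was -0.83 ± 0.13 (SE), or 1.77-fold higher with pool B. Brf1 forms the TFIIIB of genes with internal promoters, such as those of transfer RNAs and 5S ribosomal RNA. It had 146, 140 and 162 CPM with pool A and 214, 229 and 225 CPM with pool B. Its groups did not overlap either, with a smaller log2 fold change of -0.44 ± 0.14 (SE), or 1.35-fold. Without pool A replicate 2 the log2 fold change of Brf1 was -0.40 and no longer past the threshold.

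Brf2 forms the TFIIIB of genes with upstream promoters, such as those of U6 and 7SK. Its counts were low, at 31, 28 and 39 with pool A and 3, 19 and 16 with pool B. These correspond to 8.41, 11.1 and 12.2 CPM and to 1.02, 10.4 and 6.05 CPM. The groups overlapped, and pool B replicate 1 was at the limit that a count of 0 allows. The log2 fold change of Brf2 was 1.06 ± 0.58 (SE), with a 95% interval from -0.07 to 2.19 taken from the SE. Omission of pool B replicate 1 gave 0.52, and omission of pool B replicate 2 gave 1.71. With limma-voom it was 1.65.

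Polr3a and Polr3b, the 2 largest polymerase subunits, were higher with pool B. Polr3a, the largest subunit, had 65.7, 64.9 and 106.7 CPM in pool A replicates 1, 2 and 3 and 190, 223 and 236 CPM in pool B replicates 1, 2 and 3. Pool A replicate 3 stood above the other pool A libraries and still lay below every pool B library. The log2 fold change of Polr3a was -1.32 ± 0.17 (SE), or 2.49-fold higher with pool B, and it ranged from -1.52 without pool A replicate 3 to -1.20 without pool A replicate 1. Polr3b, the second largest subunit, which shares the active site with Polr3a, had 52.6, 54.6 and 51.8 CPM with pool A and 147, 181 and 157 CPM with pool B. Its pool A libraries were nearly equal, and the groups were far apart. The log2 fold change was -1.46 ± 0.16 (SE), or 2.75-fold higher with pool B.

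Polr3d and Polr3e encode partners in a heterodimer that acts in initiation and termination. Polr3e had 63.2, 43.9 and 52.4 CPM with pool A and 146, 144 and 160 CPM with pool B, so all pool B libraries were higher. Its log2 fold change was -1.35 ± 0.17 (SE), or 2.54-fold higher with pool B. Polr3d had 51.5, 48.2 and 51.1 CPM with pool A and 54.5, 53.1 and 46.2 CPM with pool B, and the groups overlapped. The log2 fold change of Polr3d was 0.12 ± 0.20 (SE), with an interval from -0.27 to 0.51. Its sign depended on the scaling and was -0.025 with total counts alone. The difference between the fold changes of Polr3d and Polr3e was not tested.

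Polr3c, part of a heterotrimer that opens promoter DNA, went with Maf1 in direction but not in size. It had 26.6, 29.3 and 36.1 CPM with pool A and 19.8, 22.4 and 14.0 CPM with pool B. The groups did not overlap, although the lowest pool A and the highest pool B library were close. Its log2 fold change was 0.86 ± 0.28 (SE), or 1.81-fold higher with pool A, on 423 counts in all libraries. Omission of pool B replicate 3 gave 0.69, and omission of pool A replicate 3 gave 0.79.

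Among 5 further polymerase III specific subunits, Crcp and Polr3k were higher with pool A. These 2 genes (40%) passed an edgeR adjusted p of 0.05, where 40.6% of all tested genes passed. The other 3 did not pass, and the median log2 fold change of the 5 was 0.86. Crcp, a subunit of the stalk, had pool means of 61.7 ± 13.5 (pool A) and 35.3 ± 2.3 CPM (pool B; SD, n = 3), and its log2 fold change was 0.95 ± 0.22 (SE; edgeR adjusted p 0.000773). Polr3k, the subunit that supports cleavage of the nascent RNA, had 0.86 ± 0.26 (SE) and 0.0105. Omission of pool A replicate 2 gave 0.0839, and omission of pool B replicate 1 gave 0.0681. CPM ranges overlapped between the pools for Polr3k and not for Crcp.

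Polr3g and Polr3gl are alternative partners of Polr3c and are close paralogs, so reads could be split between them. Polr3g, at 1.01 ± 0.41 (SE) on the log2 scale, missed the threshold narrowly (edgeR adjusted p 0.05002). Over the alternatives its adjusted p ranged from 0.0157 to 0.179, and it passed under 6 of 15, among them omission of pool A replicate 2 (0.0331) and of pool B replicate 2 (0.0157). Polr3gl had 0.73 ± 0.34 (SE) and an adjusted p of 0.094, with 0.0199 without pool B replicate 1. Polr3f, the third partner of that heterotrimer, had -0.31 ± 0.36 (SE) and an adjusted p of 0.523. Among the 10 polymerase III specific subunits examined, 3 passed in favour of pool A, 3 in favour of pool B, and 4 did not pass, where 18.6% and 22.0% of all tested genes passed in favour of pool A and pool B. Of these 10, 5 belong to the 9 genes, and nothing is read from the count.

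Among subunits shared with other RNA polymerases, 1 passed in favour of pool A and 2 in favour of pool B. Among all tested genes, 18.6% passed in favour of pool A and 22.0% in favour of pool B. Of 7 listed, 6 were in the table and 5 passed the filter; Polr2h is listed at 0 in every library. Polr2f, common to all nuclear RNA polymerases, had 133, 73.6 and 67.8 CPM with pool A and 18.1, 31.2 and 35.9 CPM with pool B. Its groups did not overlap, and the log2 fold change was 1.85 ± 0.26 (SE; edgeR adjusted p 1.57e-06). Polr1c and Polr1d, shared with RNA polymerase I, were higher with pool B, with log2 fold changes of -0.72 ± 0.20 (SE, adjusted p 0.00403) and -1.05 ± 0.34 (SE, adjusted p 0.0144). The call of Polr1d was lost in the omission of replicate 1 (0.0961) or 2 (0.0714) of pool A, or of replicate 3 of pool B (0.106).

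The genes of TFIIIA and TFIIIC, which recognise internal promoters, were listed together with Tbp, the gene of the TATA-binding protein in TFIIIB. Past the threshold were 3 of 8 genes tested (37.5%), where 40.6% of all tested genes passed. Of these 3, 1 was in favour of pool A and 2 in favour of pool B. Gtf3a encodes TFIIIA, which binds the 5S ribosomal RNA gene and its product. It had 48.8, 54.6 and 86.9 CPM in pool A replicates 1, 2 and 3 and 216, 223 and 201 CPM in pool B replicates 1, 2 and 3. All pool B libraries were higher, with a log2 fold change of -1.61 ± 0.17 (SE), or 3.06-fold higher with pool B (edgeR adjusted p 1.15e-08). Gtf3c2, a TFIIIC subunit that contacts the B box of internal promoters, had -0.84 ± 0.14 (SE) and an adjusted p of 1.77e-05. Gtf3c1, the largest TFIIIC subunit, had 0.39 ± 0.13 (SE) and 0.0184, which rose to 0.182 with total counts alone, 0.083 without replicate 1 of pool A and 0.0766 without replicate 3 of pool B. Tbp itself had 0.25 ± 0.34 (SE) and an adjusted p of 0.592.

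The factors of upstream promoters listed were SNAPc and the activators Pou2f1 and Zfp143. Of 7 tested, 2 passed in favour of each pool, a share of 57.1% in a small set. Calls in both directions were also found among all tested genes, at 18.6% (pool A) and 22.0% (pool B). Snapc3 had 30.1, 40.3 and 36.7 CPM with pool A and 9.88, 14.8 and 12.1 CPM with pool B. The fitted log2 fold change was 1.70 ± 0.29 (SE), or 3.25-fold higher with pool A (edgeR adjusted p 2.86e-05). Snapc4, the largest SNAPc subunit, went the other way with -1.05 ± 0.25 (SE) and an adjusted p of 0.00122. Snapc1 (0.81 ± 0.29, SE) and Zfp143 (-0.79 ± 0.25, SE) had adjusted p-values of 0.0265 and 0.012. The call of Snapc1 was lost in the omission of replicate 2 (0.0834) or 3 (0.0645) of pool A, or of replicate 3 of pool B (0.117), and with total counts alone (0.0777). That of Zfp143 was lost without pool A replicate 3 (0.0623) or pool B replicate 3 (0.129).

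Of 13 genes that signal to Maf1 or regulate polymerase III, 2 passed in favour of pool A and 2 in favour of pool B. The other 9 did not pass. The share past the threshold was 30.8%, against 40.6% of all tested genes. Csnk2a1, a catalytic subunit of the kinase CK2, which phosphorylates TFIIIB and Maf1, had 112, 123 and 139 CPM with pool A and 47.4, 58.0 and 46.5 CPM with pool B. The log2 fold change was 1.45 ± 0.17 (SE), or 2.73-fold (edgeR adjusted p 8.86e-08). Mtor, the kinase of mTORC1, had 0.06 ± 0.17 (SE) and an adjusted p of 0.817, and its sign turned with total counts alone (-0.085). Rps6kb1 was higher with pool A by 0.56 ± 0.18 (SE), and Myc and Akt1 were higher with pool B, with -0.58 ± 0.18 and -0.50 ± 0.17 (SE). Each of these 3 calls was lost under at least 1 alternative. Without pool A replicate 1 the adjusted p was 0.0907 for Akt1, and without pool A replicate 2 it was 0.0563 for Myc and 0.0808 for Akt1. Omission of pool B replicate 2 gave 0.0609 for Akt1, and of pool B replicate 3 gave 0.068 for Rps6kb1. Total counts alone gave 0.0873 for Rps6kb1, and upper-quartile factors gave 0.0529 for Akt1.

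Of 6 genes for proteins that bind or process polymerase III transcripts, 2 were higher with each pool. That is 66.7% of a small set, where 40.6% of all tested genes passed. Ro60, whose protein binds Y RNAs and misfolded 5S ribosomal RNA, had 34.7, 30.5 and 44.9 CPM with pool A and 204, 210 and 207 CPM with pool B. Its pool B libraries were nearly equal and all far above pool A. The log2 fold change was -2.35 ± 0.16 (SE), or 5.11-fold higher with pool B (edgeR adjusted p 3.64e-12). Elac2, the nuclease that trims the 3′ ends of transfer RNA precursors, had 1.12 ± 0.25 (SE) and an adjusted p of 0.000635. Xpot, the exporter of transfer RNAs, had 0.45 ± 0.13 (SE) and 0.00772, which rose to 0.0886 with total counts alone. Ssb encodes the La protein, which holds the ends of new polymerase III transcripts, and had -0.47 ± 0.18 (SE) and 0.0328. Its call was lost in the omission of replicate 1 of pool A (0.211), or of replicate 1 (0.132) or 3 (0.0828) of pool B, and with upper-quartile factors (0.0983).

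Over all 44 tested genes of these role groups, 10 passed in favour of each pool, a share of 45.5% against the 40.6% of all tested genes. With total counts alone 6 passed in favour of pool A and 13 in favour of pool B. Their median log2 fold change was 0.02, and the highest was 1.85, that of Polr2f, below the 4.96 of Maf1.

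**Figure D3:**
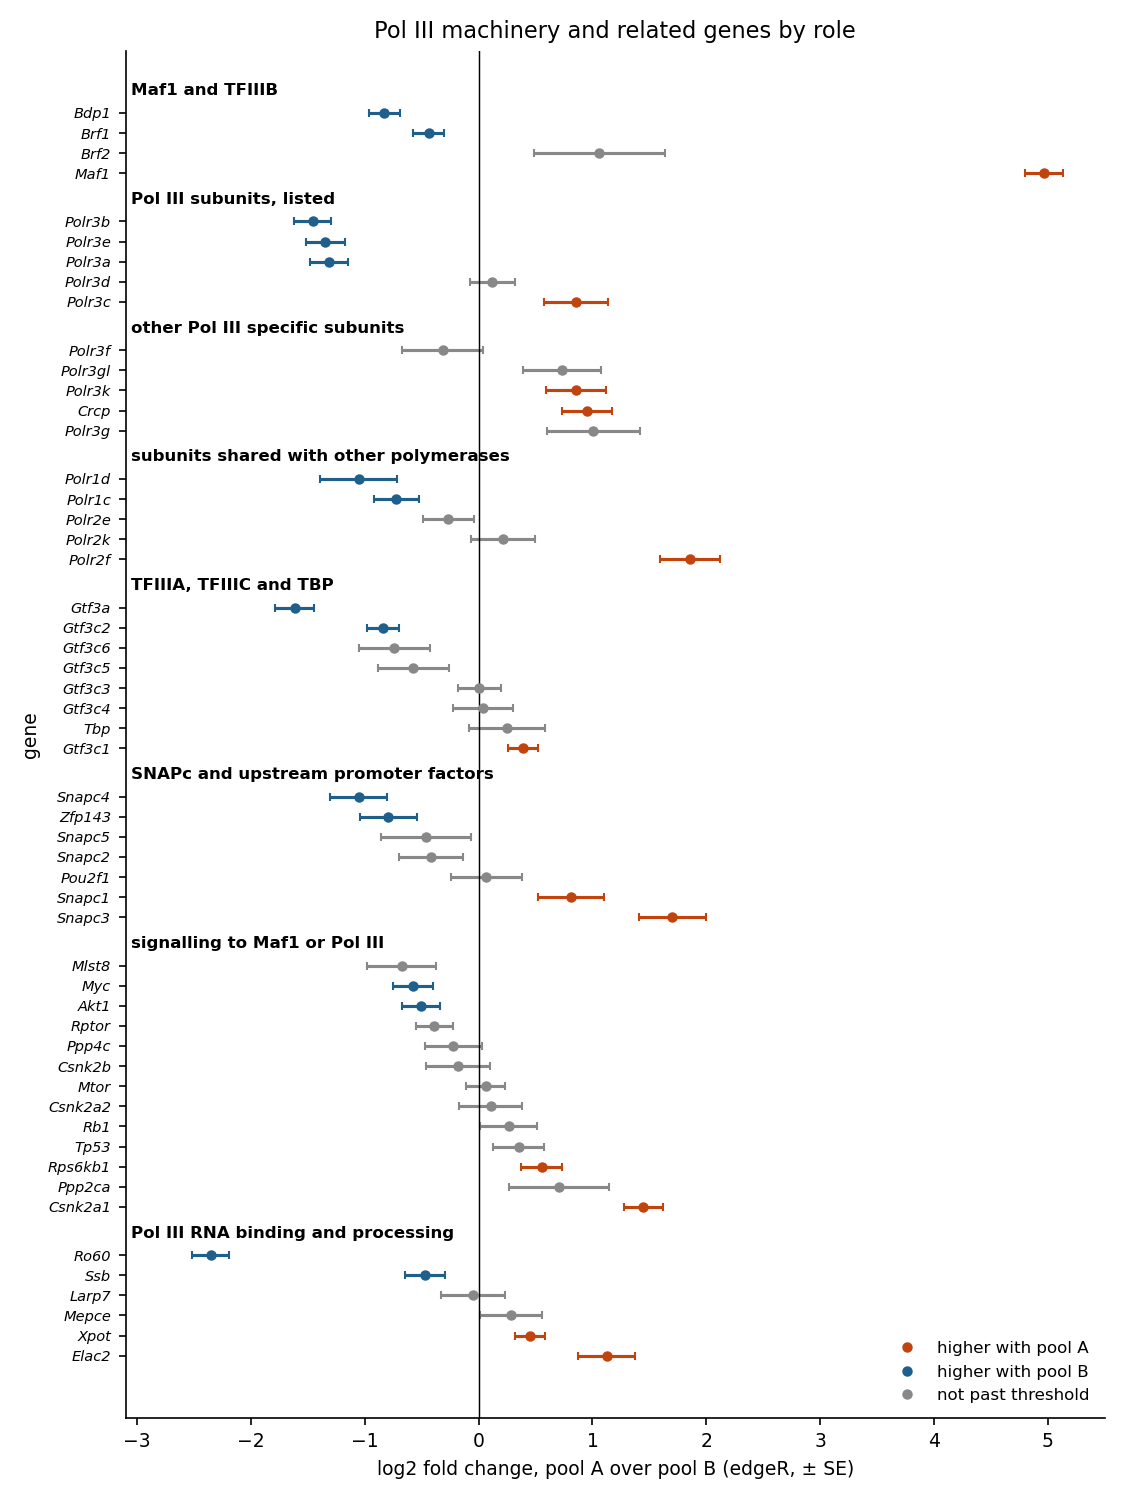
Log2 fold changes, pool A over pool B, with standard errors from edgeR for the 9 genes and 44 related genes, grouped by role. Orange and blue mark genes past an adjusted p of 0.05; the related genes lie between -2.35 (Ro60) and 1.85 (Polr2f), and Maf1 stands at 4.96.

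The rows beside Maf1 in the table, which correspond to its neighbours in RefSeq's GRCr8 annotation, did not share its difference. Sharpin, on one side, had 52.4, 49.4 and 73.1 CPM with pool A and 54.9, 64.1 and 90.0 CPM with pool B, and its log2 fold change was -0.12 ± 0.21 (SE; edgeR adjusted p 0.684). Wdr97, on the other side, had 14.6, 10.3 and 16.3 CPM with pool A and 23.5, 27.9 and 25.7 CPM with pool B, with -0.75 ± 0.31 (SE) and an adjusted p of 0.0553. Sharpin's groups overlapped, and Wdr97 was lower with pool A in every library. Among the 10 rows on each side, Hgh1 had the largest fitted log2 fold change towards pool A, at 1.36 ± 0.30 (SE). Cyc1 had 1.11 ± 0.18 (SE).

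**Figure D4:**
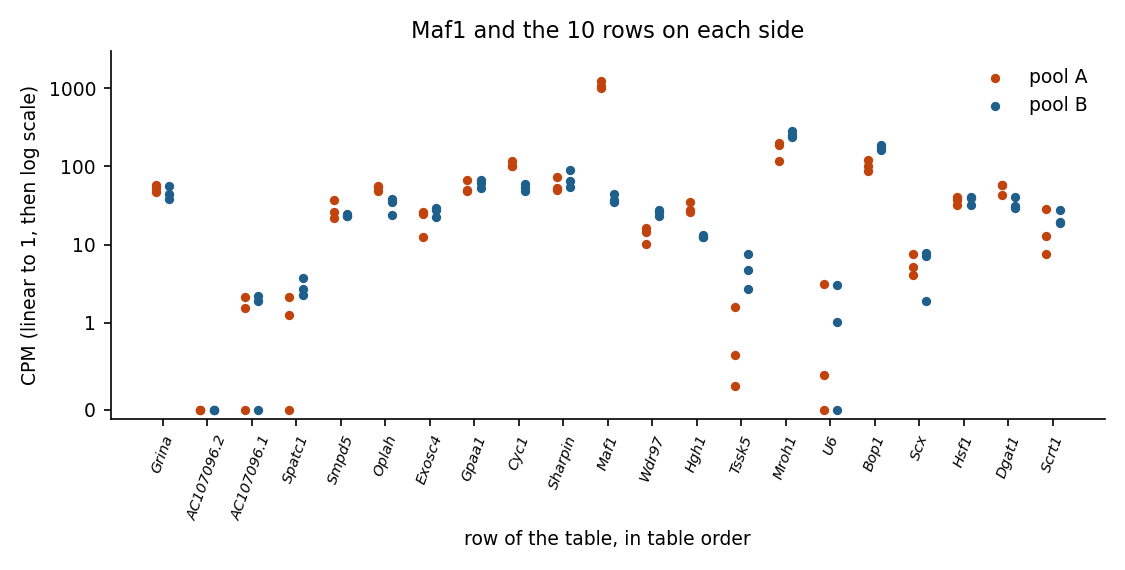
CPM in each library for Maf1 and the 10 rows on either side of it in the table, on an axis that is linear up to 1 and logarithmic above. Maf1 lies between 997 and 1226 CPM with pool A (orange), while Sharpin and Wdr97 beside it stay between 10.3 and 90.0 CPM with either pool.

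In the same annotation Btbd6 overlaps Brf1, Adgra2 overlaps Brf2 and Rnf115 overlaps Polr3c. Libraries were strand-specific per the labels, but whether counting used strand is not given in the sources used here, so reads of such pairs may not have been separated. The values of Brf1, Brf2 and Polr3c are uncertain to that extent. No overlapping gene was listed for Maf1.

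Genes with the profile closest to that of Maf1 were sought among 10341 tested genes with a gene symbol and a mean of at least 10 counts. Likeness was the root mean square distance between log2 CPM values over the 6 libraries, after each gene was centred on its own mean. The 5 closest were Atad2 (0.28), Maea (0.35), Tardbp (0.37), Lsm2 (0.38) and Npm1 (0.40). Atad2, a chromatin-bound ATPase, had 3288, 4681 and 3912 CPM with pool A and 162, 148 and 141 CPM with pool B. Maea, a subunit of the CTLH ubiquitin ligase, had 562, 477 and 482 CPM with pool A and 17.0, 25.2 and 13.2 CPM with pool B. Like Maf1, all 5 had every pool A library far above every pool B library, with log2 fold changes from 4.20 for Npm1 to 4.96 for Maea. The search picked genes with this difference by construction. The other 8 genes of the machinery lay between 2.02 (Brf2) and 3.20 (Polr3b) from Maf1 on this measure.

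**Figure D5:**
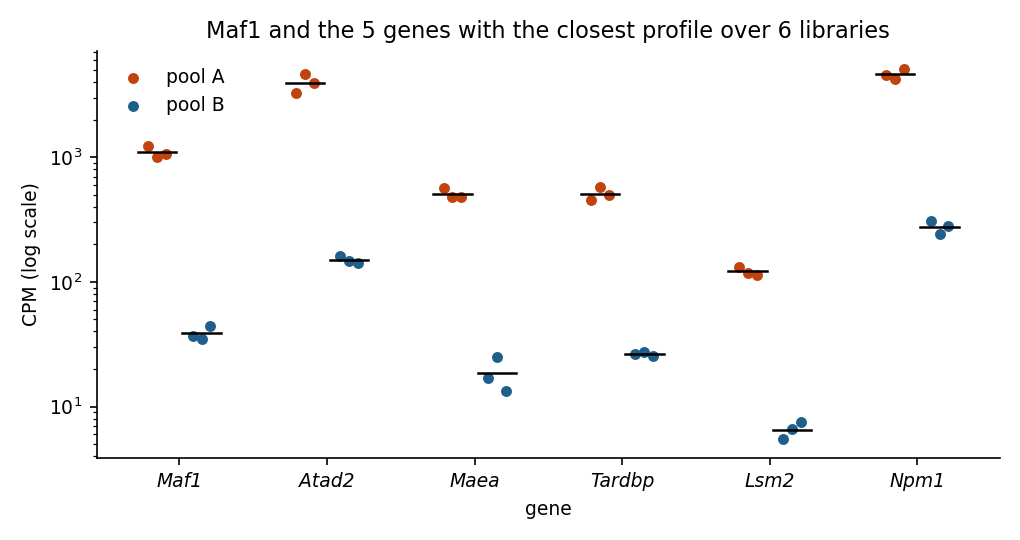
CPM (log scale) in each library for Maf1 and the 5 genes with the closest profile over 6 libraries. Points are libraries and bars are pool means (n = 3); in each gene the pool A libraries (orange) lie above the pool B libraries (blue), with log2 fold changes between 4.20 and 4.96.

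Rows named for transcripts made by polymerase III were summed over each name, because copies share reads. Whether the reads of every such row came from polymerase III products was not tested. Rpph1, the RNA of ribonuclease P, had 2504, 2339 and 4815 CPM with pool A and 15563, 25743 and 16417 CPM with pool B, so all pool B libraries were higher. The ribonuclease MRP RNA had 10171, 10259 and 15361 CPM with pool A and 8964, 10387 and 9147 CPM with pool B, and the groups overlapped. The 7SK rows summed to 3612 ± 627 (pool A) and 2608 ± 238 CPM (pool B; SD, n = 3), without overlap. U6 rows (194 ± 25 and 228 ± 38 CPM, SD, n = 3), 5S ribosomal RNA rows (26.5 ± 3.7 and 29.7 ± 6.7 CPM, SD, n = 3) and signal recognition particle RNA rows (120 ± 59 and 96.2 ± 12.2 CPM, SD, n = 3) overlapped between pool A and pool B. Y RNA rows summed to at most 7.67 CPM and the vault RNA row to at most 0.543 CPM, too few to compare. Where the groups did not overlap, Rpph1 was higher with pool B and 7SK with pool A. These sums were not tested.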

How the data were processed

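The authors deposited a table of raw counts per gene for 6 libraries, with Ensembl gene identifiers, gene names and a mean per pool, which was not used. Per the submitters' processing notes, STAR and featureCounts were used; versions, genome build, annotation and strand setting are not given in the sources used here. Counts are whole numbers without normalization. Coordinates were therefore not printed, and RefSeq's GRCr8 list served only to find neighbours.

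The pool comparison used R 4.3.3 and edgeR 4.0.16 (TMM, expression filter by group, quasi-likelihood test, pool as the only term), with Benjamini-Hochberg adjustment over 11582 genes at 0.05. SEs come from the fold change and the F statistic. The scripts were tested on simulated data. Alternatives included DESeq2 1.42.0 and limma 3.58.1. Log2 CPM used a prior count of 2.

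The members, lists and naming rules were chosen with earlier results of these data known. Related genes were listed by role. Those past the threshold with separate ranges and the largest fold changes, up to 4 per group or over 2-fold, were named; Polr3f, Polr3g, Polr3gl, Tbp, Mtor, Hgh1, Cyc1 and the calls with overlapping ranges were named beyond that rule, with their values seen. Of 46 related genes used, 45 were found, Ro60 under its newer name. Other genes on the lists are not reported here.

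Same-numbered libraries deviated from their pool means with correlations of 0.0409, -0.0195 and 0.0200, so numbers were not taken as pairs. Library pairs within a pool differed by 5.86 to 20.7 times sampling noise (chi-square per degree of freedom, genes with at least 20 counts). Intervals and floors (3 counts) cover counting error only, since reads carried no stated molecular identifiers.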

Additional observations from a re-analysis of the deposited data

How the results depend on the processing

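Of 134 refits of the 9 genes, 128 kept direction and side of the threshold, and of 375 refits of 25 related genes, 341 did. These 25 were the related genes past the threshold together with Polr3f, Polr3g, Polr3gl, Tbp and Mtor. The remaining related genes were not followed singly. Reversed signs were those of Polr3d (-0.025) and Mtor (-0.085), both with total counts alone. Testing against a 1.5-fold change, a stricter test by construction, left 1156 and 1521 of all genes higher with pool A and pool B, 1 and 4 of the 9 genes, and 4 related genes higher with each pool. An adjusted p under 0.01 left 1570 and 1956 of all genes, 1 and 4 of the 9 genes, and 6 related genes higher with each pool. With total counts alone, 6 related genes favoured pool A and 13 favoured pool B. That scaling moved the median log2 fold change of all genes by -0.14 and put 36.9% of calls higher with pool A, against 45.8% with TMM; upper-quartile factors moved it by 0.10 and gave 52.8%. The median of the 9 genes was -0.61 with at least 10 counts in every library, where Brf2 drops out, and the log2 ratio of Maf1 to the others was 6.36 as a median over genes in place of a sum. Leaving out a library gave 1 to 3 (pool A) and 4 to 5 (pool B) of the 9 genes, 7 to 11 and 7 to 10 related genes, and medians of the 9 genes from -0.46 to -0.40. Of the 9 genes, Brf2 passed without pool B replicate 2 and with limma-voom, Polr3c did not without pool A or pool B replicate 3, and Brf1 did not without pool A replicate 2. With the replicate block, 2085 and 2476 of all genes passed in favour of pool A and pool B; the numbers of the 9 genes (2 and 5) and of related genes (10 and 10) were unchanged as counts. Brf2 had the lowest count of the 9 genes, 136 in all libraries.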

Other observations

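Of the 16 rows next to the other 8 genes of the machinery, 9 were tested, and 5 of these passed an edgeR adjusted p of 0.05, 1 in favour of pool A and 4 in favour of pool B, where 40.6% of all tested genes passed. Eef2k, beside Polr3e in the table, encodes the kinase of elongation factor 2 and had 128, 75.9 and 108.9 CPM in pool A replicates 1, 2 and 3 and 521, 429 and 434 CPM in pool B replicates 1, 2 and 3. It was 3.99-fold higher with pool B in the fit (SE 0.16 on the log2 scale; edgeR adjusted p 5.16e-11). Nudt14, beside Brf1, and Mccc2, beside Bdp1, were higher with pool B by the same test, with log2 fold changes of -1.75 ± 0.41 and -0.96 ± 0.24 (SE). Rab11fip1, beside Brf2, was also higher with pool B, with -0.71 ± 0.20 (SE) and an adjusted p of 0.00462, while the fitted value of Brf2, which did not pass, had the opposite sign. Rps24, a ribosomal protein gene beside Polr3a, was higher with pool A by 0.70 ± 0.14 (SE), opposite to Polr3a. These rows were singled out after their values were seen.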
